A study of Homo sapiens with 4 samples.

Results

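The 10 genes described here encode the enzymes of de novo purine and pyrimidine nucleotide synthesis. They were taken by symbol from a table of 16057 genes, and all 10 were present: PPAT, GART, PFAS, PAICS, ADSL and ATIC of the purine route, and CAD, DHODH, UMPS and CTPS1 of the pyrimidine route. Their transcripts were measured by RNA sequencing of bulk total RNA from MM.1S, a human cell line established from multiple myeloma, a cancer of plasma cells. Cells received 350 nM JG342, which inhibits the chaperone HSP70 through an allosteric site, or its solvent control DMSO, and all were collected after 26 h. Each treatment had 2 libraries, described by the submitters as biological duplicates and numbered 1 and 2, so 4 libraries were compared. All come from a single cell line, with no other genotype or dose.

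Cells build nucleotides either from small precursors (de novo synthesis) or from recycled bases and nucleosides (salvage). The purine route assembles the ring on phosphoribosyl pyrophosphate (PRPP), using glutamine, glycine, aspartate, bicarbonate and formyl groups carried by folate, and ends at inosine monophosphate (IMP), the precursor of AMP and GMP. The pyrimidine route makes the ring before ribose phosphate is attached, passes through mitochondria at a single step, and ends at UMP, from which CTP is made. Dividing cells draw on both routes for RNA and DNA, the transcription factor MYC is a known activator of many of these genes, and the kinase complex mTORC1 activates CAD protein and raises the supply of folate-bound formyl groups.

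To show what lies in front of these genes, promoter windows from RefSeq (GRCh38.p14), each covering 250 bases before to 50 after a transcription start, were searched. The table held windows for 9 of the 10 genes, and ADSL was unmatched. PPAT and PAICS, which catalyse separate steps of the purine route, start 137 bases apart on opposite strands (by 1 of the 3 PAICS starts listed), so that both are transcribed outward from the same stretch. Below are that stretch, a short run around the E-box just inside PAICS, and the 250 bases before the starts of ATIC and DHODH, which hold an E-box, and of UMPS and CTPS1 (the upstream of its 2 starts), the pyrimidine genes that fell. Capitals mark the E-box CACGTG, the site bound by MYC with MAX, and each sequence is 5′ to 3′ on the strand given.
PPAT to PAICS, between the starts (chr4:56435616-56435751, + strand): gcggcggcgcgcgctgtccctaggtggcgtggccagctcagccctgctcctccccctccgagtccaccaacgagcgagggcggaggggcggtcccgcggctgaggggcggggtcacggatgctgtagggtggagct
PAICS, E-box after the start (chr4:56435780-56435801, + strand): ctgtatttgctgCACGTGgaaa
ATIC (chr2:215311809-215312058, + strand): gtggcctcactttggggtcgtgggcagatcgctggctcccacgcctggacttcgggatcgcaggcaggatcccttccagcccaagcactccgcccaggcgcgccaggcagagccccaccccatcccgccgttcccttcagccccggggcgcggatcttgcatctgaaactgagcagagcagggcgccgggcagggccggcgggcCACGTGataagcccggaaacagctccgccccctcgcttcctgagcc
DHODH (chr16:72008494-72008743, + strand): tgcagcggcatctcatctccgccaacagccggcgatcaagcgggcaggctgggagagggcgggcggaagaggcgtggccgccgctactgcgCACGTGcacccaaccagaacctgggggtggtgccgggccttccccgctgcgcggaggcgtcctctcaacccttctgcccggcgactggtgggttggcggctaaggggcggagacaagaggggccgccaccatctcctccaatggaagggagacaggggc
UMPS (chr3:124730202-124730451, + strand): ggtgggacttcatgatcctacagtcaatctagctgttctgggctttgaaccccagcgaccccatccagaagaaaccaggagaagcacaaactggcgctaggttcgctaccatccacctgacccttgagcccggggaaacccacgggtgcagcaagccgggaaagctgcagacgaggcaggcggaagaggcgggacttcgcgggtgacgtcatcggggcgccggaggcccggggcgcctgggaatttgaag
CTPS1 (chr1:40979446-40979695, + strand): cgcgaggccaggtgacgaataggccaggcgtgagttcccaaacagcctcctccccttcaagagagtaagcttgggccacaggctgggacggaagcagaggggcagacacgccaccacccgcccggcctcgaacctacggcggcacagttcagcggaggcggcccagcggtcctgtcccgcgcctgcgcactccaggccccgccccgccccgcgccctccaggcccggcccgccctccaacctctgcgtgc

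The E-box CACGTG, which reads the same on both strands, occurred in windows of 4 of the 9 genes. It lay with its first base 182 bases before the start of PPAT, which is the same site as the one at base 41 of PAICS, 46 bases before the start of ATIC with a further copy at base 30 after it, and 159 bases before the start of DHODH. Over all 27305 genes with windows, 8.77% held at least 1 E-box. CCAAT, the site of NF-Y, searched on both strands, was present for 3 of the 9 (GART, CAD and DHODH) against 39.7% of all genes. The letters TGATGNAA, the core of the element bound by ATF4, on both strands, and the palindromic NRF1 site occurred in none of the 9, and in 4.46% and 1.52% of all genes. The motifs do not overlap each other in these windows. These are letter matches only, and the windows do not cover sites farther from the starts.

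The TPM totals of the libraries were between 994463 and 994718, where TPM is a level per transcript length that can be compared between genes. TPM does not keep the number of reads, so the depth is unknown and no counting interval is given. As a check of the label, all 10 plasma cell markers examined were expressed, with summed levels of 15116 and 14838 TPM in DMSO and 10940 and 10251 TPM in JG342. Most of that sum is JCHAIN, the joining chain of antibodies, with means of 10145 and 5581 TPM. Of the 10, 2 fell (JCHAIN and TNFRSF17) and 2 rose, against 7.62% and 10.8% of all genes tested. The 2 that rose were the plasma cell factors IRF4, by 0.77, and PRDM1, by 0.36 on the log2 scale (limma adjusted p 0.000986 and 0.0410). The call of PRDM1 was lost without DMSO replicate 1, DMSO replicate 2 or JG342 replicate 1 (limma adjusted p 0.0619, 0.267 and 0.145). That of TNFRSF17 was lost without DMSO replicate 1 (-0.25 in place of -0.44) or JG342 replicate 2 (limma adjusted p 0.287 and 0.123). Markers of other cell types, apart from the myeloid marker LYZ, were low. CD3E and CD3G were above 1 TPM on average among the 3 T and NK cell markers with values (CD3D and NKG7 were not analysed here). CD3E was at 5.49 and 7.70 TPM in DMSO and 5.26 and 3.21 TPM in JG342 (limma adjusted p 0.132), while CD3G rose from 3.99 and 5.10 to 9.34 and 7.92 TPM (limma adjusted p 0.0152, or 0.0969 and 0.0573 without DMSO replicate 1 or JG342 replicate 1). EPCAM was listed at 0 in both JG342 libraries, and of the 4 myeloid markers with values (MPO was not analysed here) LYZ alone, at 37.0 to 46.2 TPM, exceeded 1 TPM. Of the 9 epithelial and stromal markers, CDH1 and PECAM1 exceeded 1 TPM, and none exceeded 5 TPM. The summed levels of each list other than the plasma cell markers overlapped between treatments. Tests used limma on log2(TPM + 1) over the 12042 genes whose mean level reached 1 TPM, with Benjamini-Hochberg adjusted p-values and a threshold of 0.05. With 2 libraries against 2, an exact two-sided permutation test on a single gene cannot go below 0.333.

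The enzymes spanned a wide range of levels. In DMSO the mean TPM of PAICS, the highest, was 13.6 times that of UMPS, the lowest, and the ratio was 14.7 in JG342. In DMSO the order ran PAICS, ATIC, GART, ADSL, CTPS1, PPAT, PFAS, CAD, DHODH and UMPS. GART and ADSL, and PFAS and CAD, could not be ordered, since their DMSO values overlapped. All other neighbours kept their order in each of the 4 libraries. The lowest 5 of the list thus include PPAT and CAD, the enzymes at the entry of each route. Together the 10 genes summed to 979 and 1099 TPM in DMSO replicates 1 and 2, and to 825 and 859 TPM in JG342 replicates 1 and 2.

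**Figure D1:**
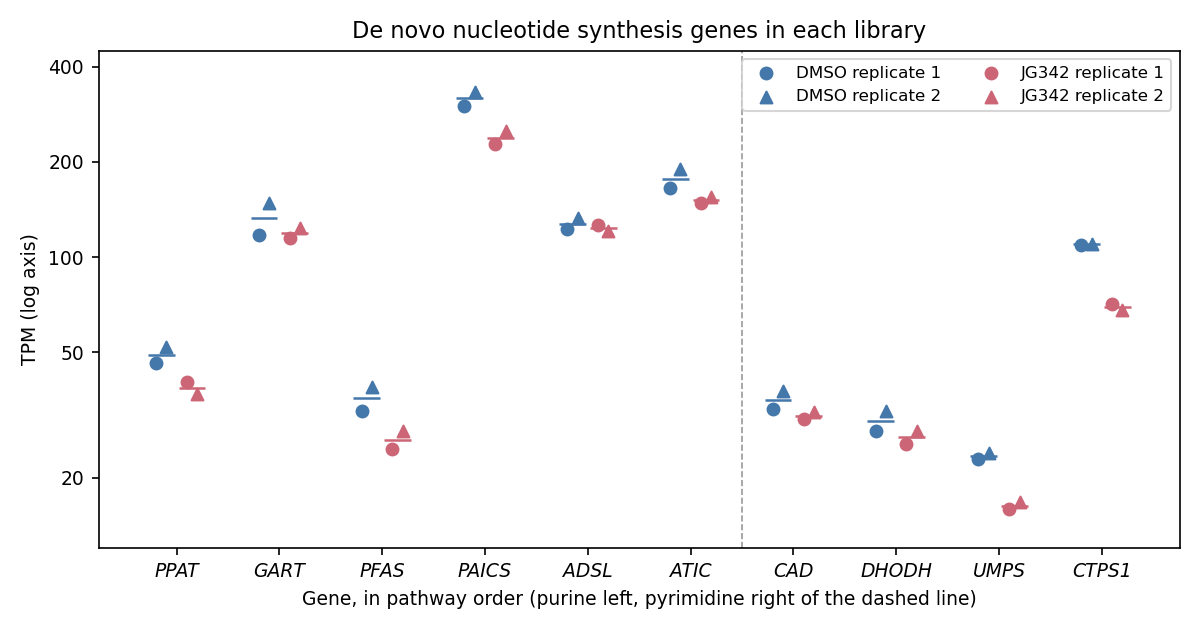
Level of each gene in TPM (log axis) in each of the 4 libraries, in pathway order. Circles are replicate 1, triangles replicate 2, blue is DMSO, red is JG342 and short lines are means of 2 libraries. Both JG342 values lie below both DMSO values for 7 of the 10 genes, the exceptions being GART, ADSL and DHODH.

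After JG342, 3 of the 10 enzymes fell, and none rose: CTPS1 fell by 36.8%, UMPS fell by 30.4% and PAICS fell by 24.9% of its DMSO mean. CTPS1 and UMPS catalyse the closing steps of the pyrimidine route, and PAICS acts in the middle of the purine route. Over all genes 18.4% passed the test, 7.62% as lower and 10.8% as higher (917 and 1304 genes; 1200 and 966 after scaling the libraries to equal medians). All 10 estimates were below 0, as were 46.5% of those of all genes, and their median log2 fold change was -0.28 against 0.03 over all genes. The estimates ran from -0.65 for CTPS1 to -0.05 for ADSL. Both JG342 values lay below both DMSO values for 7 of the 10, against 28.2% of all genes. With the replicate number as a block, which pairs libraries whose descriptions share a prefix, 6 passed, all lower, and the share of all genes that passed was 34.9%, or 15.7% as lower. The additional 3 were PPAT, PFAS and ATIC.

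**Figure D2:**
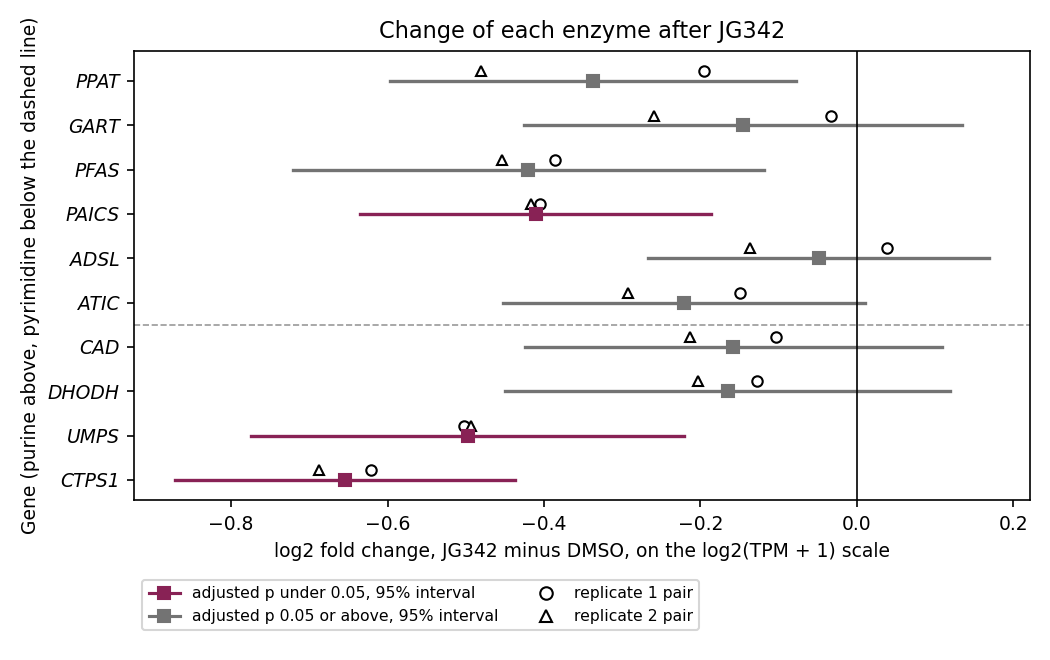
Log2 fold change of each gene, JG342 minus DMSO, on the log2(TPM + 1) scale, with its 95% interval from limma (squares and lines) and the difference within each same-numbered pair (open symbols). PAICS, UMPS and CTPS1, in purple, passed the threshold, and the pair differences lie below 0 for all genes except ADSL in pair 1.

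The purine route opens with PPAT, the amidotransferase that commits PRPP to purine synthesis and is inhibited by the end products of the route. PPAT was at 46.2 and 51.9 TPM in DMSO replicates 1 and 2 and at 40.3 and 36.9 TPM in JG342 replicates 1 and 2 (NM_002703). The treatments did not overlap, yet the difference of -0.34 ± 0.11 (SE) on the log2 scale did not pass, with a limma adjusted p of 0.0719. It passed with the replicate block (limma adjusted p 0.00820). The pairs differed, at -0.19 in pair 1 and -0.48 in pair 2. PPAT has a processed pseudogene, PPATP1, that matches 42.2% of its transcript at 95.8% identity, so a part of its reads may be shared.

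GART, a multifunctional protein that carries out several early steps including a folate-dependent formylation, was at 118 and 148 TPM in DMSO and 115 and 124 TPM in JG342 (NM_000819). The ranges overlapped, and the DMSO libraries differed more from each other than the treatment means did. The log2 fold change was -0.15 with a 95% interval of -0.43 to 0.13 (limma adjusted p 0.444).

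PFAS, which adds a nitrogen from glutamine in an early step, was at 32.5 and 38.9 TPM in DMSO and 24.6 and 28.1 TPM in JG342 (NM_012393). All JG342 values were below all DMSO values. Its log2 fold change of -0.42 ± 0.13 (SE) was close to that of PAICS but had a limma adjusted p of 0.0581. It passed with the replicate block (limma adjusted p 0.00199), and the pairs gave -0.39 and -0.45.

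PAICS, which joins a carboxylase and a synthetase that brings in aspartate, was the most abundant of the enzymes. Its levels were 302 and 334 TPM in DMSO and 228 and 250.2 TPM in JG342 (NM_001079524), a clear gap between treatments. The mean fell from 318 ± 23.0 (SD, n = 2) to 239 ± 16.0 TPM. The log2 fold change was -0.41 ± 0.10 (SE), with a limma adjusted p of 0.0223. Pair 1 gave -0.41 and pair 2 gave -0.42. The call was lost without DMSO replicate 1, DMSO replicate 2 or JG342 replicate 1 (limma adjusted p 0.0559, 0.171 and 0.0935), and when genes were not filtered on level or no mean-variance trend was used (0.0747 and 0.0791). PAICS was 6.52 and 6.44 times as abundant as its divergent neighbour PPAT in DMSO, and 5.65 and 6.78 times in JG342, so the ratio of the pair overlapped between treatments.

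ADSL, the lyase that acts both in the route to IMP and in making AMP from IMP, showed the smallest difference of the 10. It was at 123 and 133 TPM in DMSO and 126 and 121 TPM in JG342 (NM_000026), and the ranges overlapped. The log2 fold change was -0.05 with a 95% interval of -0.27 to 0.17 (limma adjusted p 0.764), so a fall as large as that of CTPS1 (-0.65) lies outside the interval. A gene annotated on the same strand, AL022238.4, shares 30.7% of the ADSL transcript, and reads from it cannot be told apart there.

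ATIC, which adds the final formyl group and closes the ring to give IMP, was at 165 and 189.5 TPM in DMSO and 149 and 155 TPM in JG342 (NM_004044). The treatments did not overlap, with a narrow gap between the lower DMSO and the higher JG342 library. The log2 fold change was -0.22 with a 95% interval of -0.45 to 0.01, and the limma adjusted p was 0.166, or 0.0348 with the replicate block. Summed over the 6 purine enzymes, levels were 786 and 895 TPM in DMSO and 682 and 714 TPM in JG342.

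The pyrimidine route opens with CAD, a very large protein that joins carbamoyl phosphate synthetase, aspartate transcarbamylase and dihydroorotase. CAD was at 33.0 and 37.5 TPM in DMSO and 30.7 and 32.2 TPM in JG342 (NM_001306079). The ranges were separate but close, and the log2 fold change of -0.16 had a 95% interval of -0.42 to 0.11 (limma adjusted p 0.382).

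DHODH sits in the inner mitochondrial membrane, where it oxidises dihydroorotate and passes the electrons to the respiratory chain. It was at 28.1 and 32.5 TPM in DMSO and 25.6 and 28.1 TPM in JG342 (NM_001361). The higher JG342 library reached the level of the lower DMSO library. Its log2 fold change of -0.17 had a 95% interval of -0.45 to 0.12 (limma adjusted p 0.390), much like that of CAD.

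UMPS, the bifunctional enzyme that turns orotate into UMP, was the least abundant of the 10, at 22.9 and 23.9 TPM in DMSO and 15.9 and 16.7 TPM in JG342 (NM_000373). Replicates lay close together and the treatments were well apart. The mean fell from 23.4 ± 0.72 (SD, n = 2) to 16.3 ± 0.59 TPM, a log2 fold change of -0.50 ± 0.12 (SE) with a limma adjusted p of 0.0236. Both pairs showed it, at -0.50 and -0.49. The call was lost without DMSO replicate 1, DMSO replicate 2 or JG342 replicate 1 (limma adjusted p 0.0944, 0.146 and 0.0743) and without the filter on low values (0.0642).

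CTPS1, the CTP synthetase that aminates UTP with glutamine and is known for its need in dividing lymphocytes, fell the most among the 10. It was at 109 and 109.7 TPM in DMSO and 70.8 and 67.7 TPM in JG342 (NM_001301237), so that the replicates almost coincided and the treatments were far apart. The mean fell from 109.6 ± 0.23 (SD, n = 2) to 69.3 ± 2.18 TPM, a log2 fold change of -0.65 ± 0.10 (SE) with a limma adjusted p of 0.00304. The fall passed under each of the 13 alternatives run, with a range of -0.72 to -0.62 and a largest limma adjusted p of 0.0294. Of all genes tested, 2.36% had an estimate at or below that of CTPS1. The related CTPS2 was far less abundant, at 2.51 and 2.21 TPM in DMSO and 1.92 and 1.91 TPM in JG342, and its difference of -0.20 had a 95% interval of -0.64 to 0.23 (limma adjusted p 0.493).

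**Figure D3:**
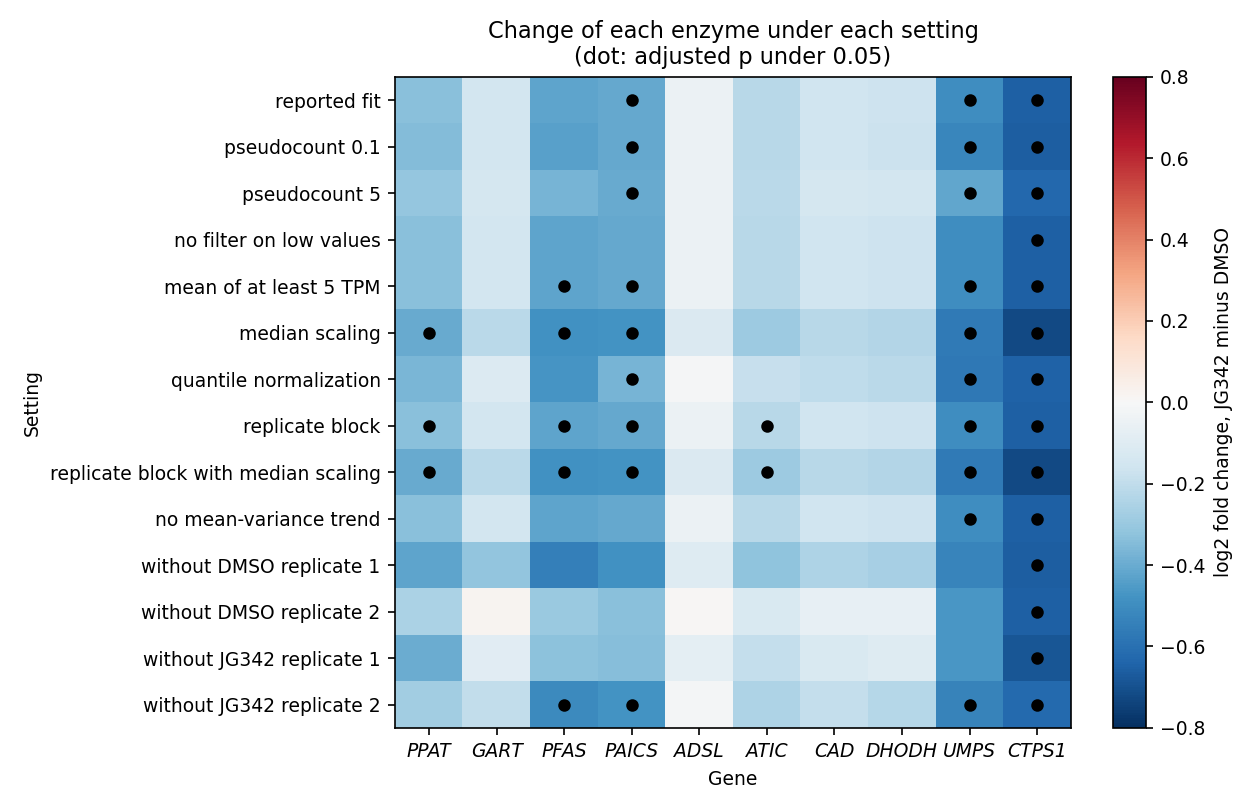
Log2 fold change (colour, JG342 minus DMSO) of each gene under the reported fit and 13 alternatives, with a dot where the limma adjusted p was under 0.05. CTPS1 has a dot in every row, PAICS and UMPS lose theirs in several, and GART, ADSL, CAD and DHODH have none.

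The DMSO replicates differed in the same direction for all 10 genes. Each was higher in replicate 2, with a median gap of 0.17 on the log2 scale, and 58.9% of all genes were higher there. The spread was widest for GART, at 0.33, and least for CTPS1, at 0.0043. In JG342, 7 of the 10 were higher in replicate 2, with a median of 0.07. Over all genes, 5212 of 12042 were higher there, with a median of -0.03. Within pairs, the median difference between treatments was -0.17 for number 1 and -0.35 for number 2. In both pairs 9 of the 10 genes were lower, against 34.9% of all genes. ADSL was the exception, with 0.04 in pair 1 and -0.14 in pair 2. Markers of DNA replication and mitosis were likewise higher in DMSO replicate 2, for 16 of 16, by a median of 0.16, and ATF4, the transcription factor of the integrated stress response, was at 420.3 and 788 TPM in DMSO replicates 1 and 2. The part of either in the spread of the enzymes was not tested.

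Among the genes that supply PRPP, lead on from IMP or salvage purines, IMPDH1, HPRT1 and PRPS1 fell. Of 15 listed genes for PRPP synthesis, the IMP branches and purine salvage, 14 were in the table, and 3 fell and none rose (7 passed with the replicate block, all lower). Over all genes, 7.62% passed as lower, or 15.7% with the block. Their median log2 fold change was -0.23, with estimates from -0.51 (IMPDH1) to 0.24 (PRPSAP2), 11 below 0 and 3 above. IMPDH1, which turns IMP towards GMP, was at 86.3 and 87.7 TPM in DMSO and 59.9 and 61.9 TPM in JG342, which gave a difference of -0.51 ± 0.10 SE on the log2 scale (adjusted p 0.00942 in limma). Its more abundant isoenzyme IMPDH2, at 309.5 and 324 TPM in DMSO and 297 and 271 TPM in JG342, differed by -0.16 and did not pass (limma adjusted p 0.265). HPRT1, which salvages hypoxanthine and guanine, fell by 0.50 on the log2 scale (limma adjusted p 0.0103), from a mean of 146 to 103 TPM. PRPS1, a PRPP synthetase, fell by 0.42 (limma adjusted p 0.0487), at the edge of the threshold. Its call was lost without DMSO replicate 2 (-0.27, limma adjusted p 0.308) or JG342 replicate 1 (0.175), with a pseudocount of 0.1 (0.0519), without the filter on low values (0.141), with quantile normalization (0.0671) and without the trend (0.117). The call of IMPDH1 was lost without DMSO replicate 1 or 2 (limma adjusted p 0.0514 and 0.0712), and that of HPRT1 without DMSO replicate 2 (0.0928). PRPS2, the isoenzyme of PRPS1, differed by -0.31 (limma adjusted p 0.0689, or 0.0104 with the replicate block). GMPS, which completes GMP, differed by -0.41 (limma adjusted p 0.0517, 4.69e-05 with the block, or 0.00408 with the block and median scaling). Its pairs gave -0.24 and -0.59.

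Pyrimidine kinases and salvage genes moved in both directions. Of 10 listed and fitted, 3 fell and 1 rose, with a median of -0.15, where 18.4% of all genes passed. NME1, a nucleoside diphosphate kinase, fell by 0.58 (limma adjusted p 0.00321), from 635 and 633 TPM to 429 and 419 TPM. It shares 45.1% of its transcript with the read-through gene NME1-NME2. UCK2, a uridine-cytidine kinase, fell by 0.43 (limma adjusted p 0.0273), and SLC29A1, a nucleoside transporter, fell by 0.55 (0.0418). The calls of both were lost without DMSO replicate 1, DMSO replicate 2 or JG342 replicate 2 (limma adjusted p 0.0937, 0.161 and 0.0976 for UCK2, and 0.0980, 0.192 and 0.150 for SLC29A1, whose log2 fold change was -0.28 without JG342 replicate 2). UPP1, the uridine phosphorylase that releases uracil from uridine, rose from 16.4 and 17.5 TPM to 47.6 and 41.8 TPM, by 1.35 ± 0.12 (SE, limma adjusted p 0.000308).

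Most listed genes of serine synthesis and one-carbon metabolism rose, pathways linked to the glycine and formyl-folate that the purine route uses. Of 12 listed serine and one-carbon genes, 11 were fitted, of which 7 rose and 2 fell, with a median of 1.21. Over all genes, 10.8% passed as higher and 7.62% as lower. The 7 include PSAT1 of serine synthesis, from 87.6 and 161 TPM in DMSO to 511 and 502 TPM in JG342 (2.08 ± 0.22 SE, limma adjusted p 0.000755). The mitochondrial folate enzymes ALDH1L2, SHMT2 and MTHFD2 rose by 2.36, 1.45 and 1.21 (limma adjusted p 0.00164, 0.00209 and 0.00328). The 2 that fell include MTHFD1, the cytosolic enzyme that makes the formyl-folate used by GART and ATIC, at 67.5 and 68.4 TPM in DMSO and 47.5 and 49.2 TPM in JG342 (-0.48, limma adjusted p 0.0128, or 0.0655 and 0.0875 without DMSO replicate 1 or 2). PSAT1 has processed pseudogenes, the closest covering 69.1% of its transcript.

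Among 8 genes of glutamine and aspartate, 2 rose and none fell, and 4 passed with the replicate block. GOT1, the cytosolic transaminase that makes aspartate or consumes it, rose from 76.5 and 76.1 TPM to 174 and 169 TPM (1.16 ± 0.09 SE, limma adjusted p 0.000171). SLC1A5, a glutamine importer, rose by 0.92 (limma adjusted p 0.00202). GLUL, which makes glutamine, differed by -0.39 (limma adjusted p 0.0666, or 0.0105 with the block). Among 7 genes of the pentose phosphate route, which supplies ribose phosphate, 1 rose and 1 fell, and 5 passed with the block. For both lists, the share of all genes that passed was 18.4%, or 34.9% with the block. TKT, the transketolase, fell by 0.50 (limma adjusted p 0.00623, or 0.0553 without DMSO replicate 2), from 365 and 369.8 to 263 and 255 TPM. PGLS of the oxidative branch rose by 0.78 (limma adjusted p 0.00717, or 0.0562 without DMSO replicate 2). RPIA, the ribose phosphate isomerase, differed by -0.44 (limma adjusted p 0.0786, or 0.00153 with the block).

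**Figure D4:**
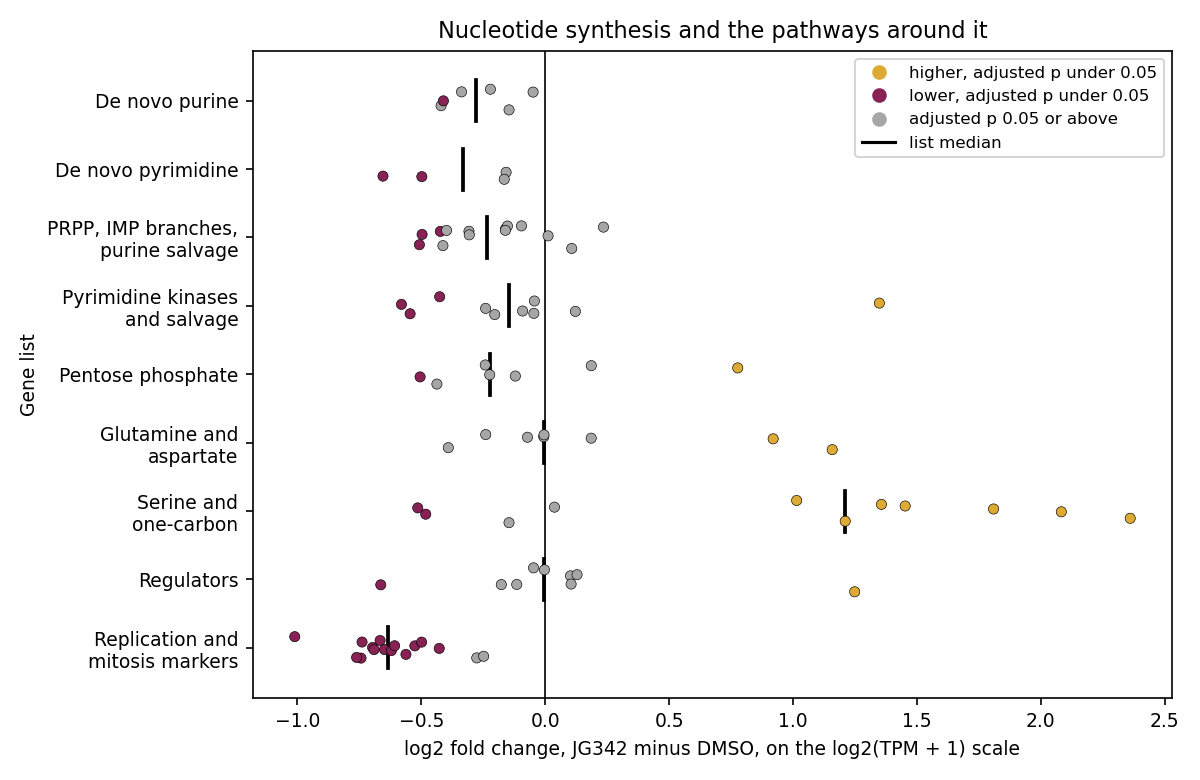
Log2 fold change (JG342 minus DMSO, log2(TPM + 1) scale) of each fitted gene in 9 lists, with purple for genes that fell, yellow for genes that rose, grey for genes that did not pass, and a black line for the list median. The de novo purine and pyrimidine medians are -0.28 and -0.33, the serine and one-carbon median is 1.21 and the replication and mitosis median is -0.63.

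Of 9 listed regulators, MYC fell and ATF4 rose, and the other 7 did not pass, where 18.4% of all genes passed. MYC was at 285 and 291 TPM in DMSO and 181 and 182 TPM in JG342, which gave a difference of -0.66 ± 0.09 SE on the log2 scale (adjusted p 0.00206 in limma). ATF4, the stress-response factor known to activate serine and one-carbon genes, was at 1269 and 1476 TPM in JG342, and its log2 fold change was 1.25 ± 0.24 (SE, limma adjusted p 0.00900). It was 0.80 without DMSO replicate 1 and 1.70 without DMSO replicate 2, with the call kept in both, and the call was lost without the filter on low values (limma adjusted p 0.0917). ATF4 has pseudogenes that match up to 52.3% of its transcript. MNT, a MAX partner that opposes MYC, differed by -0.18 (limma adjusted p 0.361). The part of MYC and ATF4 levels in the changes of the enzymes was not tested.

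Most markers of replication and mitosis fell, against 3 of the 10 enzymes. Of 16, 14 fell and none rose, where 7.62% of all genes passed as lower. With no filter on low values 7 of the markers passed, and without the trend 9 passed. The markers had a median of -0.63, and their summed level went from 3765 and 4208 TPM in DMSO to 2373 and 2663 TPM in JG342. RRM2, the regulated subunit of the reductase that makes deoxynucleotides, fell by 1.01 ± 0.09 (SE, limma adjusted p 0.000357), RRM1, its large subunit, by 0.74 (limma adjusted p 0.00191), and MKI67, the proliferation marker Ki-67, by 0.74 (limma adjusted p 0.00233). In bulk RNA, fewer cells in a cycle phase and less of a transcript per cell cannot be told apart, and the part of cell division in the fall of PAICS, UMPS and CTPS1 was not tested.

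The genes most like the mean profile of the 10 enzymes over the 4 libraries, by Euclidean distance between centred log2(TPM + 1) values among 9804 genes that averaged 5 TPM or more, were SRRD, UTP15, BID, RAD21 and TOMM22, at distances of 0.0148 to 0.0301 where the median gene was at 0.419. The nearest, SRRD, was at 42.8 and 48.0 TPM in DMSO and 36.1 and 37.6 TPM in JG342. None of the 5 passed the test individually, with limma adjusted p between 0.0782 and 0.131. They were chosen from the same values, so this is no independent test of them. The 4 library values per gene describe a profile only coarsely.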

How the data were processed

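RNA sequencing of 4 MM.1S libraries was analysed. The authors deposited 1 table with a TPM value per gene and library. The unit was read from the values, since the columns sum to between 994463 and 994718 and most values are not whole numbers. Per the submitters' processing notes, HISAT2 2.0.4, Bowtie2 2.2.5 and RSEM 1.2.12 were used. Their roles, the genome build, the annotation and the filters are not given in the sources used here. TPM values are relative to each library's total, so a change in total RNA per cell is not seen, and depth is not kept.

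Columns were matched to samples by title. Values were transformed to log2(TPM + 1), genes averaging under 1 TPM were left out, and JG342 was compared with DMSO in limma 3.58.1 (R 4.3.3, lmFit and eBayes with a trend), with treatment as the only term. Tests were two-sided, and p-values were adjusted over all 12042 genes. Fold changes on this scale are slightly understated for low genes. The fit was also run on simulated data. No result of that run is given here, so it is no evidence for the calls reported. The replicate numbers are shared by the treatments, and in the labels' descriptions libraries of equal number begin with the same characters, which was taken as pairing. Deviations of equal-numbered libraries from their treatment mean had, across genes, a Pearson r of 0.27 (Spearman rho 0.30). A further fit added this number as a block term.

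The members and gene lists were chosen with earlier results of these data known. Named genes were the 10 members, the 3 genes with the smallest p in each other list, IMPDH2, GMPS, CTPS2, PRPS1, PRPS2, MYC, ATF4, MTHFD2, and the 5 genes nearest the members' profile. MTHFD1, SLC29A1, PRPSAP2 and the markers JCHAIN, TNFRSF17, IRF4, PRDM1, CD3E, CD3G, EPCAM, LYZ, CDH1 and PECAM1 were named after their values were seen. The values of 1 listed gene are not reported here. Near-identical transcripts were searched with BLAST 2.17.0 in GENCODE release 29 (at 95% identity or more, covering 20% of the transcript or more). GOT1, MNT, MTHFD2, PGLS, RRM2 and SRRD also share 21.5% to 33.0% of their transcripts with overlapping or read-through genes, so their values are less certain. The alternatives were pseudocounts of 0.1 and 5, no filter and a filter at 5 TPM, median scaling, quantile normalization, no trend, the block with and without median scaling, and each library left out. Whether the duplicates came from separate cultures is stated only as biological duplicates. In the reported fit, p-values rest on the spread between these libraries, with each gene's variance drawn towards that of genes of like level. The prior for this had 6.89 degrees of freedom, against 2 from the libraries.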

Additional observations from a re-analysis of the deposited data

How the results depend on the processing

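The count of all genes past the threshold, 2221 of 12042 as reported, was 828 of 16057 with no filter on low values. It was 2259 of 9814 with the filter at 5 TPM, 2166 with median scaling and 1508 without the trend. The replicate block gave 4207, and the block with median scaling gave 3985. Leaving out single libraries gave 773 to 1905. Of the 10 enzymes, 3 passed as reported, 1 (CTPS1) with no filter, 4 with the filter at 5 TPM and 2 without the trend. With median scaling 5 passed, and 6 passed with the replicate block alone or with median scaling. Leaving out libraries gave 1 to 4. The block fit had an infinite prior, which sets every variance from the level, while the block with median scaling had a prior of 7.49 degrees of freedom and passed the same number of enzymes. The block changed no call among the members other than those of PPAT, PFAS and ATIC.

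With the block, alone or with median scaling, 7 purine branch and salvage genes, 5 pentose phosphate genes and 4 glutamine and aspartate genes passed. The purine branch list gave 5 with the filter at 5 TPM and 6 with median scaling. With no filter, 7 replication and mitosis markers, 2 pyrimidine branch genes, 1 pentose phosphate gene and 1 regulator (MYC) passed. Without the trend, 9 replication and mitosis markers and 2 pyrimidine branch genes passed. Leaving out libraries gave 0 to 3 purine branch genes, 0 to 2 pentose phosphate genes, 2 to 4 pyrimidine branch genes and 7 to 14 replication and mitosis markers. Both counts of 0 in limma arose without DMSO replicate 2, where 4 purine branch and 3 pentose phosphate genes had an unadjusted p under 0.05. In each such fit, the treatment left with a lone library was assumed to vary like the other.

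Among the 10 enzymes under the 13 alternatives, the direction turned only for GART and ADSL, both without DMSO replicate 2. With single libraries left out, the log2 fold change of GART ran from -0.31 to 0.021 and that of ADSL from -0.10 to 0.0066. Neither had passed. With no filter, UCK2, PGLS, MTHFD2, SLC29A1, PRDM1, TNFRSF17 and CD3G also lost their calls (limma adjusted p 0.0559 to 0.159). Without DMSO replicate 2 the log2 fold changes of CAD and DHODH were at their smallest size, -0.07 and -0.06. Depth is not recorded in TPM, and 2 libraries per treatment limit the precision of each gene to the intervals given.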
